A study of Mus musculus with 20 samples.

Results

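The 10 genes described here encode the sarcoplasmic reticulum machinery that takes up, stores and releases calcium in cardiac muscle: Atp2a2, Pln, Ryr2, Casq1, Casq2, Trdn, Hrc, Jph2, Fkbp1b and S100a1. They were taken from a fixed list of symbols and found in the platform annotation, not picked by a threshold on the values. The list was chosen with earlier results of these data known. All 10 had at least 1 probe set that names them alone, giving 25 probe sets in all, and they stand beside 18193 genes named on the array. The study hybridised ventricular RNA from mice of 2 ages to Affymetrix Mouse Genome 430 2.0 arrays, with 1 array for each mouse. The young group was 10 male C57BL/6J mice aged 4 to 6 months, and the old group was 10 male C57BL/6J mice aged 25 to 28 months. For neither group do the labels name a treatment, transgene or deletion, and all RNA came from frozen tissue. The question was how the gene expression of the ventricle differs with age.

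In each heartbeat a small entry of calcium through the surface membrane opens the ryanodine receptor Ryr2 in the sarcoplasmic reticulum, and the calcium released starts contraction. Calsequestrin holds the store close to the receptor inside the reticulum, and triadin and the junctophilins keep store, receptor and surface membrane together. Relaxation follows when the calcium pump Atp2a2, also called SERCA2a in the heart, returns the calcium to the store, under restraint by phospholamban, the product of Pln.

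In old ventricles 1 member, Hrc, was lower by the test across all genes, by 33.8%. For Trdn the outcome depended on the probe set, since 3 of its 6 probe sets were lower and the brightest did not pass. The pump Atp2a2, the receptor Ryr2 and the storage protein Casq2 differed between the ages by no more than 0.03 on the log2 scale. These values come from the brightest probe sets of Atp2a2 and Ryr2 and the only one of Casq2. Each interval reached about as far above 0 as below it. Pln differed by -0.13 without passing the test. The values are log2 signals after GCRMA, so a difference of 1 is a 2-fold change, and the test was limma with Benjamini-Hochberg adjustment over 9275 genes, called at an adjusted p under 0.05. A gene was tested if a probe set was above a log2 signal of 4 in at least 10 of the 20 arrays, and the brightest such probe set stood for it.

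By this rule 8 members were tested, and Casq1 and Fkbp1b were not. Of the 8, 1 was called lower and 0 higher, and at an unadjusted p under 0.05 the limma count was 2 lower and 0 higher. Over all genes tested, 18.7% were called, 7.49% lower and 11.2% higher, so 1 call among 8 members does not stand out from that background. The median difference of the 8 members was -0.08 and that of all genes 0.01, and 6 of the 8 were below 0. No member separated the ages completely, which 1.78% of all genes did. In the test over 15304 probe sets, 4 of the 23 tested member probe sets were called lower and 0 higher (6 and 0 at an unadjusted p under 0.05), against 14.8% called and 5.91% called lower among all probe sets.

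**Figure D1:**
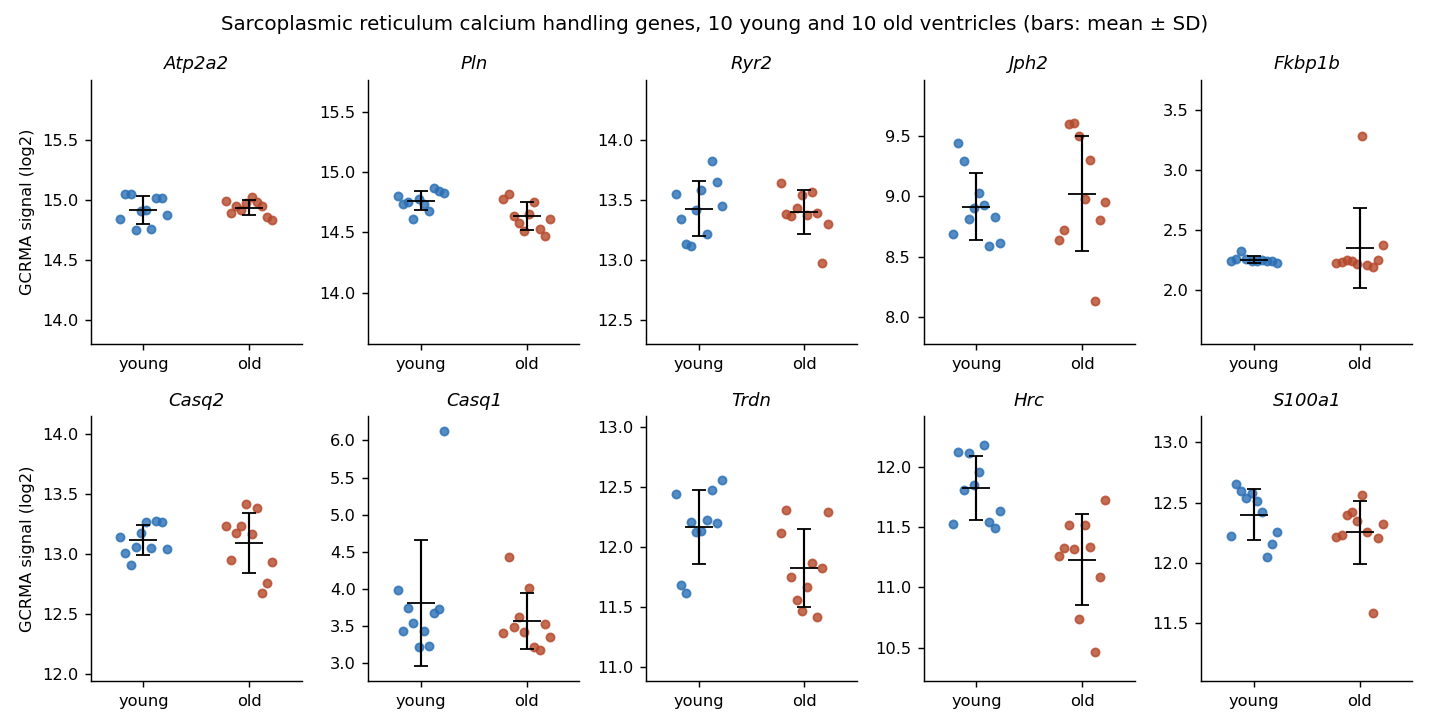
Log2 signal of each member in 10 young and 10 old ventricles, at the probe set that stands for the gene; each point is 1 array and the bars are the mean ± SD. The vertical axes start at different levels and do not start at 0. For Hrc 7 old arrays lie below all young ones, for Atp2a2 the old arrays lie within the young range, and Casq1 and Fkbp1b lie near the array's floor apart from single arrays.

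The calcium pump Atp2a2 had the same signal at both ages within the spread of the arrays. Its brightest probe set was at 14.83, 14.95 and 15.02 (lowest, median and highest) in old and at 14.75, 14.91 and 15.05 in young ventricles. Every old array lay inside the young range. The difference was 0.02 ± 0.06 (SE), with a 95% interval of -0.11 to 0.15 (limma adjusted p = 0.867). The next probe sets by brightness, with young means of 14.53 and 11.98, gave 0.02 and 0.01.

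The 3 dimmer Atp2a2 probe sets lay lower in old ventricles without passing the test, at -0.19, -0.49 and -0.43. The probe set 1437797_at was at 8.75 ± 1.16 (SD, n = 10) in old and 9.25 ± 1.06 (SD, n = 10) in young, and 9 of 10 old arrays were under the young median. Its signal also varied between 5 sets of 4 arrays that deviated together over all genes, each with 2 old and 2 young arrays, from 6.86 in the old arrays of 1 set to 10.25 in the young arrays of another. The labels name no such sets, and they were found by clustering the arrays' deviations from their age means. Within these sets 1437797_at was lower in old in 5 of 5, by 0.31 to 0.75, and with the set as a block its limma adjusted p was 0.00115. That fit called 33.1% of all probe sets, so a call in it is common. 1443551_at passed in it as well (adjusted p = 0.0473). The sets were found in these same values, so p-values with the block can be too small, here and in the later block results. The mean over the 6 probe sets gave -0.18 with an interval of -0.47 to 0.12, the opposite sign to the brightest probe set. Saturation of the bright probe sets and the part of the transcript each probe set reads were not tested.

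Phospholamban (Pln), the small membrane protein that slows the pump until it is phosphorylated, was at 14.47, 14.62 and 14.82 in old and at 14.61, 14.77 and 14.87 in young ventricles. The groups overlapped, with 4 old arrays below all young ones and 3 young arrays above all old ones. The difference was -0.13 ± 0.07 (SE), 8.57% lower, with an interval of -0.27 to 0.01 (limma adjusted p = 0.183). Its 3 probe sets gave -0.13, -0.15 and -0.09, and within the 5 array sets the difference was below 0 in 5 of 5, from -0.21 to -0.02. Pln passed with the array set as a block (adjusted p = 0.0467, in a fit that called 36.1% of genes) and when no filter on low signals was set (adjusted p = 0.0449, where 23.9% of genes were called).

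Because the pump and its inhibitor act as a pair, the difference between them was also taken within each array, which removes a constant scaling of that array. Pln minus Atp2a2 was at -0.46, -0.33 and -0.07 in old and at -0.31, -0.14 and -0.03 in young. The old arrays were shifted down, 6 of them below all young arrays, with overlap in the rest. The old-minus-young difference was -0.15 ± 0.05 (SE), with an interval of -0.25 to -0.05 (two-sided permutation test with 100000 resamples, p = 0.00632, adjusted over 4 pairs 0.0253). It kept its sign but missed the threshold in 7 other settings. These included the fits without old replicate 5, old replicate 8, young replicate 11 or young replicate 20 (highest adjusted p = 0.0536). Quantile normalisation was another (-0.10, adjusted p = 0.086). With the mean over all probe sets of each gene the difference was 0.05, the other sign.

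7 old arrays carried high signals of Myl7, the atrial regulatory light chain, so results are also given without them. Myl7 ranged from 2.36 to 14.55 in old and from 2.38 to 2.44 in young ventricles, and Sln, the atrial pump inhibitor sarcolipin, from 2.11 to 13.87 in old and 2.00 to 2.32 in young. Both were under a signal of 4 in all young arrays and above 10 in old replicates 3, 4, 5, 6, 8, 9 and 10, except that Sln was at 9.91 in old replicate 3. Of 13 atrial genes 9 were tested, and 6 were called higher and 0 lower in old (6 and 1 at an unadjusted p under 0.05 by limma). Their summed signal was 12.09 to 16.62 in old and 11.73 to 13.05 in young. The remaining 3 old arrays, replicates 1, 2 and 7, had Myl7 at 2.36, 8.27 and 6.58 and Sln at 2.11, 6.97 and 5.01, so for both genes only replicate 1 lay near the young level. Comparing these 3 old arrays with Myl7 under 10 with young leaves less atrial signal, not none. Old replicates 1 and 2 also lie in array set 1 and replicate 7 in set 4, while the young arrays span all 5 sets. Every result from these 3 arrays, here and below, therefore mixes age with array set. Restricted to them, Pln was at 0.02 against all young arrays (interval -0.17 to 0.21) and Pln minus Atp2a2 at -0.02. The young means of Pln were 14.82 and 14.85 in sets 1 and 4, against 14.75, 14.76 and 14.64 in sets 2, 3 and 5. The share of the pair's difference that comes with atrial transcripts was not tested beyond these values.

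The other cell type markers moved as follows. Of 18 cardiomyocyte genes tested none was called (limma, 1 higher and 3 lower at an unadjusted p under 0.05), and their summed signal was 18.28 to 18.54 in old and 18.37 to 18.60 in young. Of 6 ventricular genes none was called either (0 higher and 1 lower at an unadjusted p under 0.05), with a median of -0.10, and Myl2, the ventricular light chain that defines the tissue, was at 15.08 ± 0.08 in old and 15.15 ± 0.09 in young (mean ± SD of 10 arrays). Fibroblast genes were called higher in 6 of 10 tested (median 0.48) and macrophage genes in 7 of 8 (median 0.73). Without the 7 old arrays the counts were 1 of 10 (median 0.355) and 4 of 8 (median 0.77). That fit has 3 old arrays and called 2.93% of all genes, against 18.7% in the main fit. Smooth muscle and endothelial genes were each called higher in 1 of 8 tested (medians of 0.66 and 0.12), skeletal muscle genes in 1 of 5 (median -0.21) and adipocyte genes in 1 of 2 (median 2.71). Their part in the members' results was not tested. In whole tissue, fewer cells of a type and less RNA per cell cannot be told apart.

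The ryanodine receptor Ryr2, the release channel, was at 12.98, 13.39 and 13.64 in old and at 13.12, 13.43 and 13.82 in young ventricles. The ranges overlapped, and old replicate 9 lay alone at the bottom. The difference was -0.03 ± 0.10 (SE), with an interval of -0.23 to 0.17 (limma adjusted p = 0.870), and its sign turned after median centring, where it was 0.003. A dimmer Ryr2 probe set, 1421126_at, was at 7.30 ± 0.54 in old and 7.62 ± 0.54 in young (mean ± SD of 10 arrays), a difference of -0.32 with an interval of -0.79 to 0.16. The dimmer probe set was called with the array set as a block (adjusted p = 0.045), where 33.1% of probe sets were called. With the 3 old arrays with Myl7 under 10 that probe set was at 0.21 against all young arrays. In array sets 1 and 4, which hold these 3, its young means were 7.91 and 8.43, against 7.49, 7.12 and 7.13 in sets 2, 3 and 5. Each of the 3 lay below both young arrays of its own set.

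S100a1, a calcium sensor of the cardiomyocyte that binds both Ryr2 and the pump, was at 11.58, 12.29 and 12.56 in old and at 12.05, 12.46 and 12.65 in young ventricles at its brighter probe set. 9 of 10 old arrays were under the young median, and old replicate 8 stood apart from the others at the low end. The difference was -0.15 ± 0.11 (SE), interval -0.37 to 0.08 (limma adjusted p = 0.381), and without old replicate 8 it was -0.07. Its second probe set, 1417421_at, gave -0.31 with an interval of -0.59 to -0.03 (adjusted p = 0.137), and it passed with the array set as a block (adjusted p = 0.0256). There all 10 old arrays were under the young median and 6 young arrays were above all old ones. The brighter probe set was below 0 in 5 of 5 array sets, from -0.22 to -0.02.

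Junctophilin 2 (Jph2), which ties the reticulum to the surface membrane at the release site, spread more among old than among young arrays. It was at 8.13, 8.97 and 9.61 in old and at 8.59, 8.87 and 9.44 in young. 3 old arrays were above all young ones, and 1, old replicate 8, was below them. The difference was 0.11 ± 0.17 (SE), interval -0.24 to 0.45 (limma adjusted p = 0.695), and it ran from 0.04 without old replicate 4 to 0.21 without old replicate 8. The dimmer probe set 1421453_at gave 0.64 with a wide interval of -0.23 to 1.51. Its difference was above 0 in 4 of the 5 array sets, reaching 1.21, and it was called higher with the set as a block (adjusted p = 0.0108), the only member probe set called in that direction in any fit run. With the 3 old arrays with Myl7 under 10 the 2 Jph2 probe sets, the brighter first, were at -0.03 and 0.14 against all young arrays. These 3 come from array sets 1 and 4 only. At 1421453_at each of them lay above both young arrays of its own set. At the brighter probe set old replicates 2 and 7 did so, and old replicate 1 lay between the young arrays of its set.

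Fkbp1b, the calstabin that binds Ryr2, was near the floor of the array. Its probe set was at 2.19, 2.24 and 3.29 in old and at 2.23, 2.25 and 2.32 in young, so no array exceeded 4 and no test was made. All but old replicate 6 were under 2.4. Such a signal says only that this probe set did not register the transcript. Its close relative Fkbp1a, which binds the same receptors, was at 11.62 ± 0.16 in old and 11.45 ± 0.13 in young (mean ± SD of 10 arrays) at the brightest of its 4 tested probe sets. The difference was 0.18 with an interval of 0.01 to 0.34 (limma adjusted p = 0.127, and 0.0299 with the array set as a block, where 36.1% of genes were called). The other tested probe sets of Fkbp1a gave 0.07, 0.09 and 0.06, with intervals that held 0.

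Calsequestrin 2 (Casq2), the main calcium store protein of the heart, was at 12.68, 13.17 and 13.41 in old and at 12.91, 13.10 and 13.28 in young ventricles. Old arrays extended past the young range at both ends, 2 below and 2 above. Casq2 has 1 probe set, so no second one could be set beside it. The difference was -0.03 ± 0.10 (SE), interval -0.23 to 0.17 (limma adjusted p = 0.875). Its sign turned after median centring (0.005) and with the 3 old arrays with Myl7 under 10 (0.07). Casq2 minus Ryr2, taken within arrays, differed between the ages by 0.002 with an interval of -0.15 to 0.15 (permutation adjusted p = 0.979).

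Calsequestrin 1 (Casq1), the skeletal muscle form, was at 3.19, 3.45 and 4.43 in old and at 3.22, 3.61 and 6.12 in young ventricles, and exceeded 4 in 3 of 20 arrays. It was not tested. The top value came from young replicate 20, which was not the highest young array for any of 19 skeletal muscle genes. Trdn was also highest among the young arrays in that replicate, at 12.56.

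Triadin (Trdn), which anchors calsequestrin to the ryanodine receptor, was at 11.42, 11.79 and 12.31 in old and at 11.62, 12.20 and 12.56 in young ventricles at its brightest probe set, 1451801_at. 8 of 10 old arrays were under the young median, and the groups overlapped. The difference was -0.34 ± 0.14 (SE), 21.0% lower, with an interval of -0.62 to -0.06, and it did not pass over all genes (limma adjusted p = 0.0885). Leaving out old replicate 2, old replicate 10, young replicate 12 or young replicate 13 each brought it past the threshold, with adjusted p down to 0.0413. With the array set as a block its adjusted p was 0.00956.

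3 other Trdn probe sets did pass in the probe set fit. The probe set 1426134_at was at 10.42, 11.14 and 11.86 in old and at 11.16, 11.74 and 12.14 in young. 5 old arrays were below all young ones and 9 of 10 were under the young median. The difference was -0.57 ± 0.15 (SE), 32.5% lower (adjusted p = 0.0141). The probe set 1451940_x_at gave -0.59 ± 0.17 (SE; adjusted p = 0.0208). Both were called in each of the 20 fits that left out 1 array, and both were below 0 in 5 of 5 array sets.

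The remaining called probe set, 1426142_a_at, gave -0.46 ± 0.15 (SE; adjusted p = 0.0452). It was called in only 6 of 20 fits that left out 1 array, and after median centring its adjusted p was 0.0737. The dimmest pair of Trdn probe sets gave -0.21 and 0.24 with adjusted p of 0.497 and 0.545, so 5 of the 6 probe sets were below 0. Probe sets of 1 gene share its transcripts and are not independent measurements, and an x in the name marks probes that can also match other transcripts. Which triadin splice forms each probe set reads was not tested.

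With the 3 old arrays with Myl7 under 10 the Trdn difference against all young arrays was smaller. There 1426134_at and 1451940_x_at were both at -0.28 and 1451801_at at -0.07, with adjusted p of 0.573, 0.600 and 0.903, in a fit that called 1.6% of probe sets. These 3 arrays come from array sets 1 and 4 only. At each of these probe sets, every one of the 3 lay below both young arrays of its own set. The part of the array sets in the smaller difference was not tested. With the Myl7 and Sln level as a covariate 1426134_at and 1451940_x_at were at -0.49 and -0.51 and were not called (adjusted p = 0.224 and 0.265, with 2.4% of probe sets called). With that covariate and the array set together they were at -0.48 and -0.46 and were called (adjusted p = 0.0325 and 0.0439), in a fit that called 4.85% of probe sets.

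**Figure D2:**
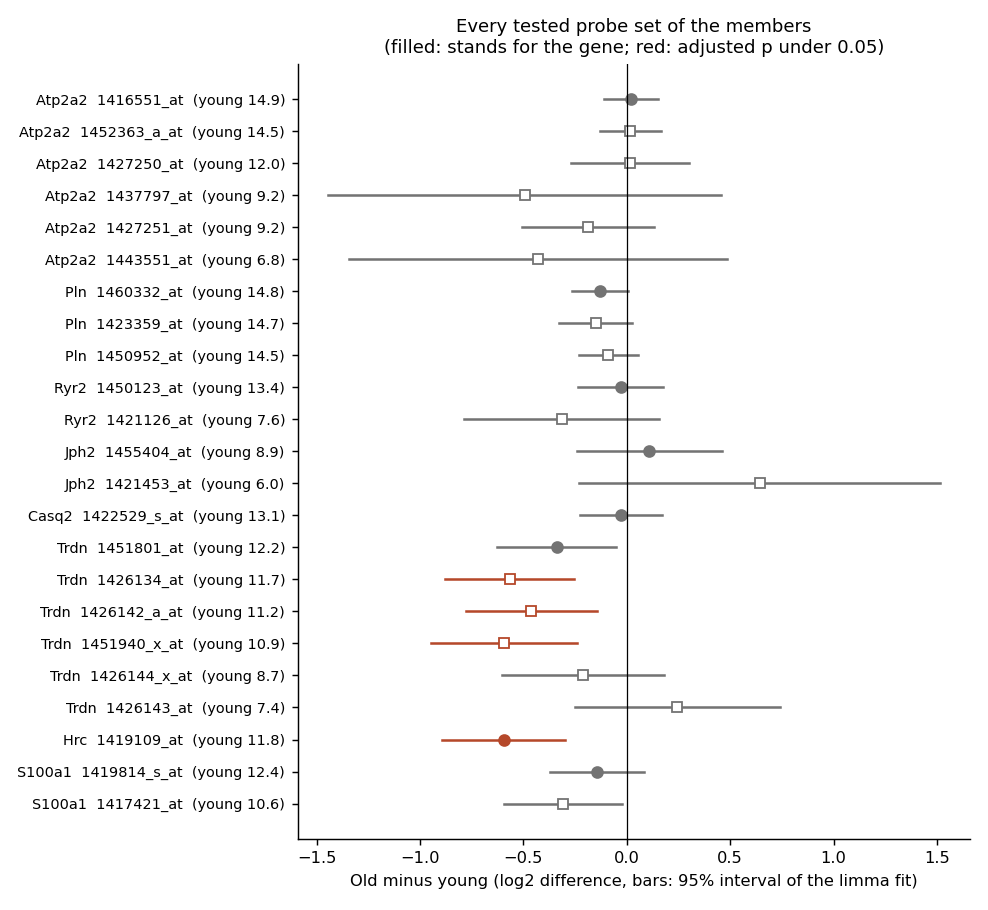
Old minus young log2 difference of each of the 23 tested member probe sets with its 95% interval from the limma fit over all probe sets, with the young mean in brackets; filled circles stand for the gene, and red marks an adjusted p under 0.05. Hrc and 3 Trdn probe sets are red and lie below 0; the bright Atp2a2 probe sets have short intervals around 0, and the dim ones long intervals.

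Trdn minus Casq2 within arrays, the anchor against the protein it anchors, was at -1.94, -1.34 and -0.64 in old and at -1.32, -0.95 and -0.49 in young. 5 old arrays were below all young ones. The difference of -0.31 had an interval of -0.65 to 0.03 and did not pass (permutation adjusted p = 0.136), though it did without old replicate 2 or old replicate 10. Jph2 minus Ryr2 differed by 0.14 with an interval of -0.29 to 0.57 (permutation adjusted p = 0.672).

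Hrc encodes the histidine-rich calcium-binding protein, which sits in the lumen of the reticulum, binds calcium, and contacts both triadin and the pump. It was at 10.46, 11.32 and 11.72 in old and at 11.50, 11.83 and 12.18 in young ventricles. All 10 old arrays were under the young median, 7 old arrays were below all young ones, and 6 young arrays were above all old ones. The difference was -0.60 ± 0.14 (SE), with an interval of -0.89 to -0.30, 33.8% lower in old (limma adjusted p = 0.00527). Hrc has 1 probe set, so no second one could be set beside it.

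Hrc was lower in old in 5 of 5 array sets, by 0.29, 0.55, 0.78, 0.62 and 0.75. It was called in each of the 20 fits that left out 1 array, from -0.65 to -0.51, and under both other scalings. Old replicates 1, 2 and 7, with Myl7 at 2.36, 8.27 and 6.58, had Hrc signals of 11.27, 11.33 and 11.34, each under all 10 young arrays. Against all young arrays, these 3 gave -0.52 with an interval of -0.85 to -0.18, which did not pass over all genes (adjusted p = 0.105). Their array sets, 1 and 4, had the lowest young means of Hrc, 11.58 and 11.52. In sets 2, 3 and 5 the young means were 11.97, 11.9 and 12.15. The -0.52 therefore also holds a difference between array sets, whose share was not tested. With the Myl7 and Sln level as a covariate the Hrc difference over all 20 arrays was -0.62 (adjusted p = 0.0708), and with the array set added it was -0.45 (adjusted p = 0.129). Far fewer genes were called in these fits, 2.93% without the 7 arrays, 3.74% with the covariate and 6.24% with covariate and array set.

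**Figure D3:**
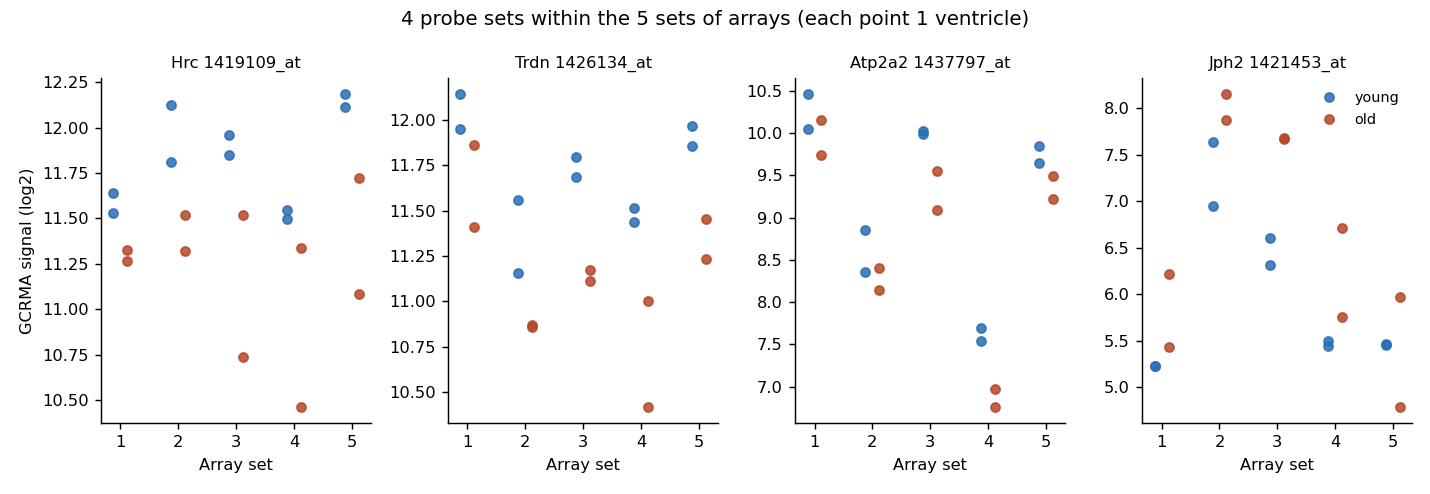
Log2 signal of 4 member probe sets in each of the 5 array sets, 2 old and 2 young ventricles in each; each point is 1 array, and the axes do not start at 0. For Hrc and Trdn 1426134_at the old mean lies below the young mean in 5 of 5 sets; Atp2a2 1437797_at moves by over 2 log2 units between sets and by less than 1 between ages, and the old mean of Jph2 1421453_at lies above the young in 4 of 5 sets.

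**Figure D4:**
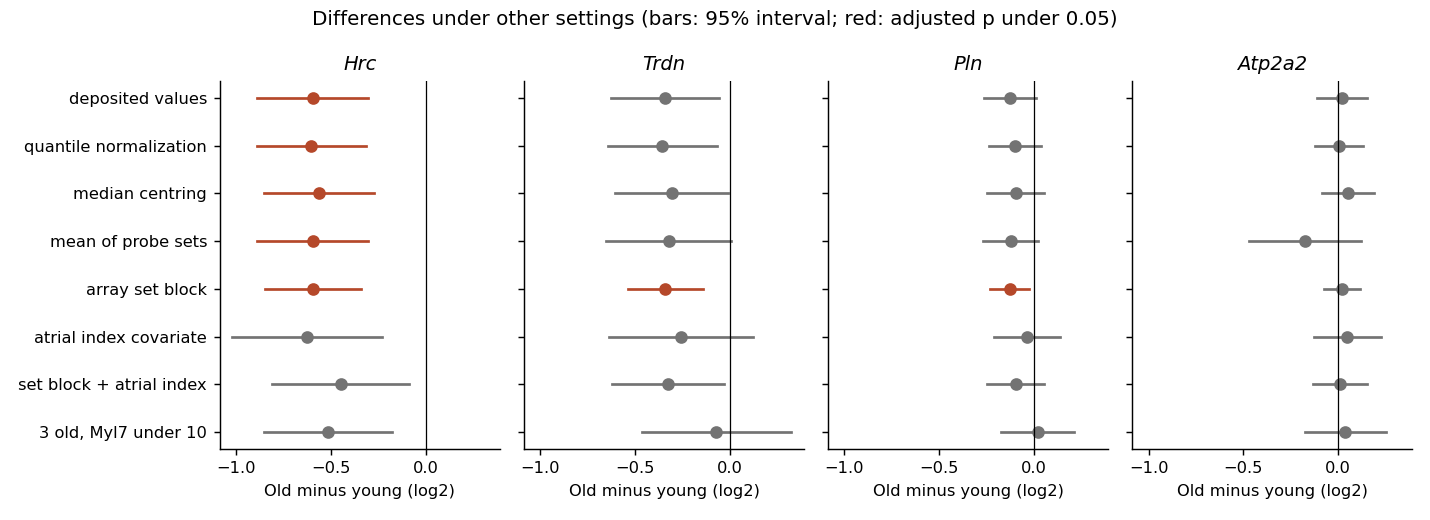
Old minus young log2 difference of Hrc, Trdn, Pln and Atp2a2 (gene level) with 95% intervals under the deposited values and 7 other settings; red marks an adjusted p under 0.05. Hrc stays between -0.62 and -0.45 throughout and is called in 5 of the 8 settings drawn, Trdn and Pln are called, among the settings drawn, only with the array set as a block, and Atp2a2 is near 0 except with the mean of its probe sets.

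Hrc is the member that passed and Casq2 is the luminal storage protein whose difference was near 0, so their promoters are shown together. RefSeq promoters on GRCm38.p6, 250 bases before to 50 after the start, were matched for 8 of the 10 members. Both genes lie on the plus strand, Hrc at chr7:45335019-45335318 and Casq2 at chr3:102086165-102086464. Capitals mark the 9 letters CTAAAAATG, an AT-rich stretch noticed in both after the sequences were read, and in Casq2 also a match to the MEF2 consensus, the binding motif of a muscle transcription factor family.
Hrc: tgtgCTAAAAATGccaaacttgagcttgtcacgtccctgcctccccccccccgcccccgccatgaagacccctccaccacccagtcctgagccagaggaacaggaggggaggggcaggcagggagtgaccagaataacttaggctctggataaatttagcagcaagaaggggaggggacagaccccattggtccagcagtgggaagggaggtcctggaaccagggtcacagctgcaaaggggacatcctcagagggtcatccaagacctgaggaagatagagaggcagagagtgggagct
Casq2: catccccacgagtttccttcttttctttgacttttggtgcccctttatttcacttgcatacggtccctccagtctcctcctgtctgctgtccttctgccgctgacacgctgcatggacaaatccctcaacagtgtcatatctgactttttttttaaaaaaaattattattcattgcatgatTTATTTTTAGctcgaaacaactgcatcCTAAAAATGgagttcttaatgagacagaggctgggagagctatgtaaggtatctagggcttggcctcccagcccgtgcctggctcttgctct

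On both strands, CTAAAAATG began 246 bases before the Hrc start and 42 before the Casq2 start, and 0.233% of 27025 promoters of this length held it. The Casq2 window also held the MEF2 consensus 69 bases before the start, which 3.26% of promoters held, and the Hrc window did not. The 2 marked stretches in Casq2 do not overlap. Both held an E-box, CANNTG, as did 72.1% of promoters. None of the 8 windows held a CArG box, and Pln was the only one with TATAAA, which 14.2% of promoters held. These are matches of letters and were not tested as binding sites.

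The difference between Hrc and its neighbours was described within arrays, after the values were seen and without a test. Hrc minus Casq2 was at -1.86 ± 0.40 in old and -1.30 ± 0.34 in young (mean ± SD of 10 arrays). Hrc minus Trdn was at -0.60 ± 0.31 in old and -0.34 ± 0.50 in young, a smaller gap. Old replicate 8, with the lowest Hrc signal, was also the lowest old array for Casq2, Trdn, Jph2 and S100a1. It was near the old median for Atp2a2 and Ryr2, at 14.95 and 13.39. It was the lowest old array for Casq1 and Fkbp1b too, at 3.19 and 2.19, but both genes were near the floor.

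Of 58 other genes of reticulum calcium handling and its control, 54 had a probe set and 44 were tested. Of these 5 were called higher and 2 lower, 7 of 44 against 18.7% of all genes, and their median difference was 0.03. The split moved with the scaling, to 5 higher and 5 lower after quantile normalisation and 5 and 0 after median centring, and was 10 and 8 with the array set as a block. Sri encodes sorcin, a calcium sensor that binds Ryr2 and reduces its opening, and it had the lowest adjusted p of these 7. It was at 9.25, 9.36 and 9.81 in old and at 8.60, 8.73 and 9.29 in young ventricles. 9 of 10 young arrays were below all old ones. The difference was 0.58 ± 0.09 (SE; limma adjusted p = 0.000182), and its second tested probe set gave 0.54.

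Sri was called under every setting run, at 0.60 with the Myl7 and Sln covariate (adjusted p = 0.00864) and 0.57 with the 3 old arrays with Myl7 under 10 (adjusted p = 0.0412). Atp2a3, a pump gene better known from blood and vessel cells, was 1.27 ± 0.26 (SE) higher (adjusted p = 0.00169). The Atp2a3 difference was 1.03 with the covariate and 0.68 with the 3 arrays, and it was called in neither fit (adjusted p = 0.0954 and 0.113). Bin1, which shapes the transverse tubules, was 0.77 ± 0.20 (SE) higher (adjusted p = 0.00938) from a young signal of 4.14, close to the floor. It was called with the 3 arrays (0.54, adjusted p = 0.0129) and not with the covariate (0.60, adjusted p = 0.222).

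Pde4d, a phosphodiesterase that breaks down cyclic AMP near the release channel, was 0.38 higher (adjusted p = 0.0302). Without old replicate 6, old replicate 7, young replicate 14 or young replicate 17 it was at 0.33 to 0.36 and was not called. It was called with the covariate (0.55, adjusted p = 0.0455) and not with the 3 arrays (0.59, adjusted p = 0.0952). Prkaca, the catalytic subunit of the kinase that phosphorylates phospholamban, was lower, with a log2 difference of -0.32 ± 0.10 (SE; adjusted p = 0.0269). It was not called without old replicate 5, after median centring, with the covariate or with the 3 old arrays with Myl7 under 10, where it was at -0.16. Atp2b1, a calcium pump of the surface membrane, was 0.31 higher (adjusted p = 0.0382) and kept its call in 8 of 20 fits that left out 1 array.

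Cacna1c, the pore of the L-type calcium channel that triggers Ryr2, had a difference of -0.35 ± 0.12 (SE; adjusted p = 0.0464). It kept its call in 7 of 20 fits that left out 1 array, and with the 3 old arrays with Myl7 under 10 it was at -0.02. Of the close relatives of members, Ryr1 was at 2.85 in old and 2.97 in young, and Atp2a1 at 2.61 and 2.52, both skeletal muscle forms near the floor in both groups. Sln was under 4 in all young arrays and at 10.34 ± 4.21 (SD, n = 10) in old, with the Myl7 signals described for the atrial genes. None of these 3 was tested.

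**Figure D5:**
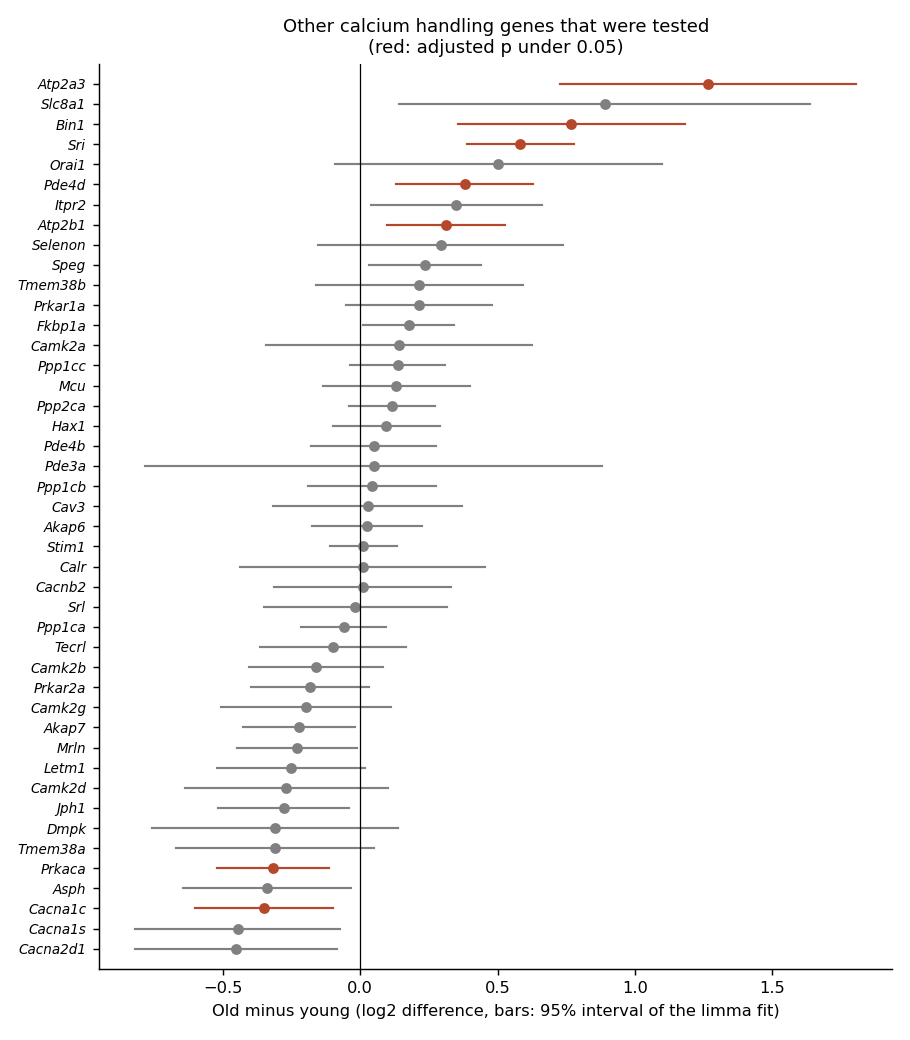
Old minus young log2 difference with 95% interval of the 44 other calcium handling genes that were tested, in order of the difference; red marks an adjusted p under 0.05. 5 genes are red above 0, among them Sri with a short interval, and 2, Prkaca and Cacna1c, are red below 0.

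For the pump, its inhibitor and the release channel, the tested genes whose deviations from the age means followed theirs most closely over the 20 arrays were also found. For Atp2a2 these were Trim25, Metap1 and Aplp2, with Pearson r of 0.895, 0.893 and 0.860. For Pln they were Tmem106b, Kif1b and Scaper, at 0.933, 0.916 and 0.911. For Ryr2 they were Rhot1, Otud6b and Ccng1, at 0.930, 0.898 and 0.861. The 20 arrays share the 5 sets that deviate together, and these genes are the highest of all tested, so the values only describe these arrays.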

How the data were processed

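Total RNA of cardiac ventricle from 20 mice, 1 array each, was measured on Affymetrix Mouse Genome 430 2.0 arrays. The authors deposited 1 table of 45101 probe sets in log2 units made with GCRMA (version not given), per the submitters' processing notes. No source used here states the log base, and log2 was taken from the range, 0.98 to 16.0, and from what GCRMA returns. The submitters' design text calls both age groups young, and groups were taken from the sample titles. Array medians were 3.07 to 3.20, and the number of arrays limits the precision.

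Probe sets were named from the platform annotation. Of them 34945 had 1 gene, 932 several (left out), and 9160 are unnamed here, beside 64 controls. Differences were fitted with limma 3.58.1 (lmFit, eBayes) in R 4.3.3, with age as the term, and the fit was tried on simulated data. The simulated noise was independent between genes and arrays, so that trial does not cover arrays that deviate together. Pairs of members were compared by permutation (numpy 2.4.6). The pair Fkbp1b minus Ryr2 was planned and not run, since Fkbp1b was at the floor.

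Named genes were all members, up to 8 called genes of the other calcium list, Sln, Ryr1, Atp2a1 and Fkbp1a, 3 most similar genes for each of 3 members, and defining markers. The members and lists were chosen with earlier results of these data known. The labels count 10 mice in each group, and p-values measure the spread between these samples. Alternatives were other scaling, filters and probe set rules, an atrial covariate (mean of Myl7 and Sln relative to their highest array), leaving out 7 old arrays with Myl7 above 10, the array set as a block (average linkage, 5 sets), and leaving out each array. Those for single member probe sets were chosen after seeing the data.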

Additional observations from a re-analysis of the deposited data

Results flagged for a closer look

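In 80 groups of 10 arrays, the array at either end was compared with its nearest neighbour, and 11 groups had a gap larger than Dixon's 95% limit for 10 values. Chance alone flags about 1 group in 20, and groups of related probe sets are not independent. Among the release genes, Ryr2 was lowest in old replicate 9 at 12.98, with the next old array at 13.30. S100a1 was lowest in old replicate 8 at both probe sets, at 11.58 (next 12.20) and at 9.48 (next 10.12). Casq2 minus Ryr2 was lowest in the same replicate, at -0.71, with the next old array at -0.43. Casq1 was highest in young replicate 20 at 6.12, with the next young array at 3.99.

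Fkbp1b was highest in old replicate 6 at 3.29 (next 2.38), and in young replicate 13 at 2.32 (next 2.26), both under a signal of 4. Of the other calcium genes, Sri was highest in old replicate 5 at 9.81 (next 9.48). Atp2a1 was highest in old replicate 6 at 4.04 (next 2.69), and Ryr1 in old replicate 7 at 2.98 and in young replicate 12 at 3.46. No cause was tested for these arrays.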

How the results depend on the processing

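No paired analysis was possible because the sample titles number the arrays from 1 to 20 and the age groups share no number, and the array sets used as a block come from the data. Of all genes, 1732 were called, and 4345 with no filter, 347 with the atrial covariate, 272 without the 7 old arrays with high Myl7, 3344 with the array set as a block, 579 with block and covariate, and 1391 to 1830 when 1 array was left out. Called genes were higher in old in 59.9%, against 43.2% after quantile normalisation, 68.6% after median centring and 29.9% with no filter, and the median over all genes was 0.01, -0.06 after quantile normalisation and 0.04 after median centring. Members called were 1, and, in the order no filter, covariate, without the 7, block, block and covariate, 2, 0, 0, 3 and 0 (at an unadjusted p under 0.05 by limma 1, 1 and 2 where the count was 0), and 1 to 2 with 1 array left out. Member probe sets called were 4, and 0 with the covariate, 0 without the 7, 10 with the block, 2 with block and covariate and 3 to 4 with 1 array left out (4 and 1 at an unadjusted p under 0.05 where 0). Other calcium genes called were 7, and 2 with the covariate, 2 without the 7, 18 with the block, 2 with both and 4 to 8 with 1 array left out. Among uncalled differences the sign turned for Atp2a2 with the mean of probe sets (-0.18), Pln without the 7 (0.020), Jph2 without the 7 (-0.026), Ryr2 with median centring (0.0026), covariate (0.093) and without the 7 (0.10), and Casq2 with median centring (0.0046), covariate (0.090), without the 7 (0.069) and block with covariate (0.11). With 1 array left out Ryr2 ran from -0.065 to 0.016 and Casq2 from -0.064 to 0.018, above 0 without old replicate 9 or young replicate 18 and without old replicate 8 or 9. Pln minus Atp2a2 was -0.10 with quantile normalisation, 0.053 with the mean of probe sets, -0.084 with the covariate, -0.016 without the 7 and -0.17 to -0.13 with 1 array left out. Casq2 minus Ryr2 was -0.0028 with the covariate, -0.034 without the 7 and -0.025 to 0.048 with 1 array left out, Jph2 minus Ryr2 -0.13 without the 7, 0.32 with block and covariate (called) and 0.06 to 0.24 with 1 array left out, and Trdn minus Casq2 -0.31 with the block and -0.43 with both (called) and -0.38 to -0.24 with 1 array left out. The fits without the 7 arrays have 3 old arrays and those with no filter test more genes. The cause of the other changes was not tested.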
